A study of Arabidopsis thaliana with 4 samples.

Results

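Salicylic acid and N-hydroxypipecolic acid are small molecules of plant immune signalling. A set of 8 Arabidopsis thaliana genes, most of them of the synthesis and control of these acids, is described here in single root cells. The genes are FMO1 (AT1G19250), ALD1 (AT2G13810), PBS3 (AT5G13320), ICS1 (AT1G74710), SARD1 (AT1G73805), CBP60g (AT5G26920), WRKY46 (AT2G46400) and PUB54 (AT1G01680). They are 8 of the 32833 gene rows in each table, and they were chosen with values from these libraries known. The data are droplet single-cell RNA-seq of protoplasts, cells freed from their walls by enzymes, from the tips of primary roots grown at 22 °C for 4 to 5 days after germination. There is 1 library for each of 4 diploid transgenic lines and no replicate. pWER:GFP, pCORTEX:GFP and also pSCR:GFP carry GFP under a promoter named for a gene of the epidermis, the cortex and the endodermis, and PET111 is an enhancer trap whose table holds a YFP row. No pathogen or hormone treatment is given in the labels for any library, and no undigested root was analysed here. Every line is also a separate batch in the labels, and the effects of line and of batch cannot be told apart.

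ICS1 makes isochorismate in plastids, PBS3 joins isochorismate to glutamate, and the product breaks down to salicylic acid. ALD1 starts the conversion of lysine to pipecolic acid, and FMO1 adds the hydroxyl group that gives N-hydroxypipecolic acid. SARD1 and CBP60g are related transcription factors that activate ICS1 and other genes of both routes, WRKY46 is a transcription factor of the WRKY family, and PUB54 is named as a plant U-box protein. The pathway is best known from infected leaves.

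The analysis kept 6360, 7552, 3516 and 6830 barcodes of pWER:GFP, pCORTEX:GFP, then PET111 and pSCR:GFP, each with at least 2000 unique molecular identifiers (UMIs, counted transcripts) and at most 10% of them from plastids and mitochondria. They held between 151062589 and 298058639 UMIs per library, with median depths of 10742.5, 14322.5, 15354.5 and 9532 UMIs. Between 5 and 16 barcodes occurred in both libraries of a pair. Markers of all 9 root cell classes searched for led at least 1 cluster in every library, and clusters that met no class made up 46.7%, 36.3%, 27.8% and 49.3% of kept barcodes. Levels are UMIs per 1000000 UMIs of the library, cluster or class (CPM), with exact Poisson intervals at 95%. Shares of barcodes have exact Clopper-Pearson intervals, and both kinds of interval cover counting error only. How often the intervals of the lines overlap over all genes is not given. Overlap or its absence is therefore a description, and no difference between lines is read from it.

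FMO1, the N-hydroxylase, stood at 21.4 CPM in pWER:GFP (20.8 to 22.1), at 9.40 in pCORTEX:GFP (9.05 to 9.75), at 10.1 in PET111 (9.65 to 10.7) and at 11.4 in pSCR:GFP (10.9 to 12.0). The pWER:GFP interval lay above those of the other lines, and the pCORTEX:GFP and PET111 intervals overlapped. ALD1, the aminotransferase that acts before FMO1, was close to undetected, with 9 UMIs in 3 barcodes of pWER:GFP, 7 UMIs in 3 barcodes of pCORTEX:GFP and 0 UMIs in PET111 and pSCR:GFP. A count of 0 allows up to 0.0197 CPM in PET111 and 0.0199 CPM in pSCR:GFP at a limit of 3 UMIs. The exact ALD1 intervals of PET111 and pSCR:GFP reach 0.0243 and 0.0244 CPM. Those of pWER:GFP, 0.0204 to 0.0848, and pCORTEX:GFP, 0.00944 to 0.0484, overlapped both, and each rests on the UMIs of 3 barcodes.

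PBS3, the enzyme that conjugates isochorismate, stood at 5.56 CPM in pWER:GFP (5.24 to 5.89), at 9.26 in pCORTEX:GFP (8.91 to 9.61), at 13.4 in PET111 (12.8 to 14.0) and at 2.39 in pSCR:GFP (2.15 to 2.65). These 4 intervals did not overlap, with PET111 highest and pSCR:GFP lowest. ICS1, the isochorismate synthase, stood at 9.50 CPM (9.08 to 9.93), 8.16 (7.84 to 8.49), 8.13 (7.68 to 8.59) and 5.13 (4.78 to 5.50) in the same order of lines. Its pCORTEX:GFP and PET111 intervals overlapped, pWER:GFP lay above them and pSCR:GFP below.

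Among the regulators, SARD1 stood at 2.95 CPM in pWER:GFP (2.71 to 3.19), at 3.32 in pCORTEX:GFP (3.12 to 3.54), at 2.70 in PET111 (2.44 to 2.97) and at 1.74 in pSCR:GFP (1.54 to 1.96). The pWER:GFP interval overlapped those of pCORTEX:GFP and PET111, which did not overlap each other, and pSCR:GFP lay below the rest. CBP60g, its relative, stood at 10.5 CPM (10.1 to 11.0), 12.8 (12.4 to 13.2), 27.4 (26.6 to 28.2) and 8.50 (8.04 to 8.98), with PET111 highest and no overlap between any of the 4 intervals. PUB54 stood at 18.1 CPM (17.5 to 18.7), 12.4 (12.0 to 12.8), 12.7 (12.1 to 13.3) and 8.47 (8.01 to 8.94), and only pCORTEX:GFP and PET111 overlapped.

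WRKY46 had the widest range over the lines of the 7 genes other than ALD1. It stood at 175 CPM in pWER:GFP (174 to 177), at 12.9 in pCORTEX:GFP (12.5 to 13.3), at 18.7 in PET111 (18.1 to 19.4) and at 114 in pSCR:GFP (112 to 115). A WRKY46 UMI was seen in 43.6% and 30.6% of the kept barcodes of pWER:GFP and pSCR:GFP, against 6.16% in pCORTEX:GFP and 9.58% in PET111. In barcodes thinned to 2000 UMIs each the shares were 18.2%, 2.91%, 4.78% and 11.8% in the order pWER:GFP, pCORTEX:GFP, then PET111 and pSCR:GFP, so the order of the lines was the same at equal depth.

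**Figure D1:**
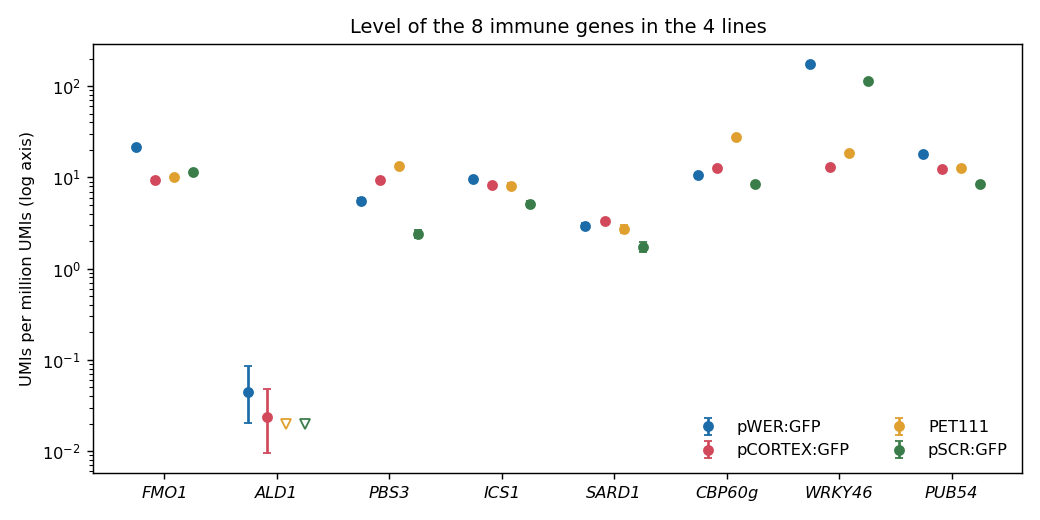
Level of each of the 8 genes in the 4 libraries, in CPM on a log axis, with exact Poisson 95% intervals that are often smaller than the points. Open triangles for ALD1 mark the limit that 0 UMIs allow. WRKY46 spans 12.9 to 175 CPM, while the other 6 detected genes above ALD1 lie between 1.74 and 27.4 CPM.

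Each library was set against the mean of the other 3 as a log2 ratio with 5 CPM added to both sides, over the 19460 genes that reached 100 UMIs in any library, and 7 of the 8 genes passed that filter. The added 5 CPM understates the change of low genes. In pWER:GFP, 1 of the 7 was at least 2-fold higher, WRKY46 at 1.76, against 0.802% of all genes, and 0 were as much lower, against 0.951%. In pCORTEX:GFP, WRKY46 alone was lower, at -2.59, against 4.29% of all genes, and 0 were higher, against 0.673%. In PET111, CBP60g was higher at 1.06, against 0.396% of all genes, and WRKY46 was lower at -2.15, against 4.37%. In pSCR:GFP, 0 of the 7 were higher and 0 lower, against 4.18% and 1.2% of all genes, and the farthest from 0 was PBS3 at -0.96. With 1 CPM added in place of 5, PBS3 was past 2-fold too, at 1.10 in PET111 and -1.62 in pSCR:GFP. The share of all genes past 2-fold with 1 CPM added is not given. With 1 library per line none of these ratios has a replicate check.

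Some of the other listed immune genes were high in the same pair of libraries as WRKY46 and some were not. JAZ1, a repressor of jasmonate signalling, stood at 1019, 174, 148 and 1043 CPM in pWER:GFP, pCORTEX:GFP, then PET111 and pSCR:GFP. WRKY40, another WRKY factor, stood at 414, 99.4, 133 and 452 CPM in the same order. WRKY53 ran otherwise, at 22.3, 31.1, 60.7 and 12.8 CPM, and WRKY33 at 75.5, 41.4, 84.0 and 62.3. The part of JAZ1 and WRKY40 in the WRKY46 difference between lines was not tested.

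Within each library, the UMIs of most of the 8 genes lay in 1 cluster of barcodes. Clusters were formed without the 8 genes and without the other immune genes listed below, and the cluster with the most UMIs of the set is called the FMO1-rich cluster from here on. It was picked by these genes, so its levels are a description and were not tested. It held 292 barcodes in pWER:GFP, 251 in pCORTEX:GFP, 233 for PET111 and 355 in pSCR:GFP, which is 4.59%, 3.32%, 6.63% and 5.20% of the kept barcodes and 2.03%, 0.960%, 1.49% and 3.50% of the UMIs. Of the FMO1 UMIs, 89.0%, 91.4%, 89.3% and 87.5% lay in it. For PBS3 the shares were 93.8%, 83.6%, 85.0% and 90.6%. For PUB54 they were 72.4%, 84.1%, 90.0% and 72.9%. ICS1 was less concentrated, with 65.7%, 53.3%, 64.7% and 54.6%, and CBP60g had 40.5%, 53.9%, 54.8% and 59.3%. All 16 ALD1 UMIs of the kept barcodes, 9 in pWER:GFP and 7 in pCORTEX:GFP, were in it. SARD1 had only a small part of its UMIs there, 4.04%, 5.86%, 6.59% and 3.04%. Except in pSCR:GFP these shares were above the cluster's share of all UMIs.

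Levels inside the cluster were far above those of the other barcodes. FMO1 stood at 939.8 CPM inside against 2.42 outside in pWER:GFP, 894 against 0.820 in pCORTEX:GFP, 609.8 against 1.10 in PET111 and 286 against 1.48 in pSCR:GFP. PBS3 stood at 257 against 0.354, 806 against 1.53, 767 against 2.04 and 61.8 against 0.233 CPM. ICS1 stood at 308 against 3.33, 453 against 3.84, 354 against 2.91 and 80.0 against 2.41 CPM. For each of these genes pSCR:GFP had the lowest level inside the cluster, and also the smallest share of the barcodes of the cluster with a UMI. FMO1 was seen in 18.6% of them in pSCR:GFP, against 42.1% to 56.5% in the other lines. In barcodes of the cluster with FMO1 the median count was 14 UMIs in pSCR:GFP, against 7 to 12, not scaled for depth.

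CBP60g stood at 209.9 CPM inside against 6.37 outside in pWER:GFP, 717 against 5.94 in pCORTEX:GFP, 1011 against 12.6 in PET111 and 144 against 3.59 in pSCR:GFP. PUB54 stood at 646 against 5.10, 1087 against 2.00, 767 against 1.29 and 176 against 2.38 CPM. SARD1 stood at 5.87 against 2.89, 20.3 against 3.16, 12.0 against 2.56 and 1.51 against 1.75 CPM, so in pSCR:GFP it was no higher inside than outside. With 5 CPM added, 6 of the 7 genes that passed the filter were at least 2-fold higher inside the cluster in pWER:GFP and in pSCR:GFP and 7 of 7 in pCORTEX:GFP and PET111, against 8.6%, 5.88%, 10.3% and 9.84% of all genes. None was 2-fold lower, against 18.5%, 12.1%, 16.3% and 17.5%. Nothing is read from these counts, since the genes chose the cluster.

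Outside the cluster WRKY46 stood higher in pWER:GFP and pSCR:GFP than in pCORTEX:GFP and PET111, and inside the cluster it did not. Inside it WRKY46 stood at 732, 983, 918 and 342 CPM in pWER:GFP, pCORTEX:GFP, then PET111 and pSCR:GFP. Outside it WRKY46 stood at 164, 3.47, 5.17 and 105 CPM. Outside the cluster pWER:GFP was 47.3-fold above pCORTEX:GFP, with 44.0-fold and 50.8-fold from the ends of both intervals, and inside the cluster the same ratio was 0.744. Levels inside were not equal either. The ratio of pSCR:GFP over pCORTEX:GFP was 0.348 inside and 30.4 outside, and that of pWER:GFP over pSCR:GFP was 2.14 inside and 1.56 outside. The cluster therefore held 73.3% and 72.8% of the WRKY46 UMIs in pCORTEX:GFP and PET111 but 8.46% and 10.5% in pWER:GFP and pSCR:GFP.

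**Figure D2:**
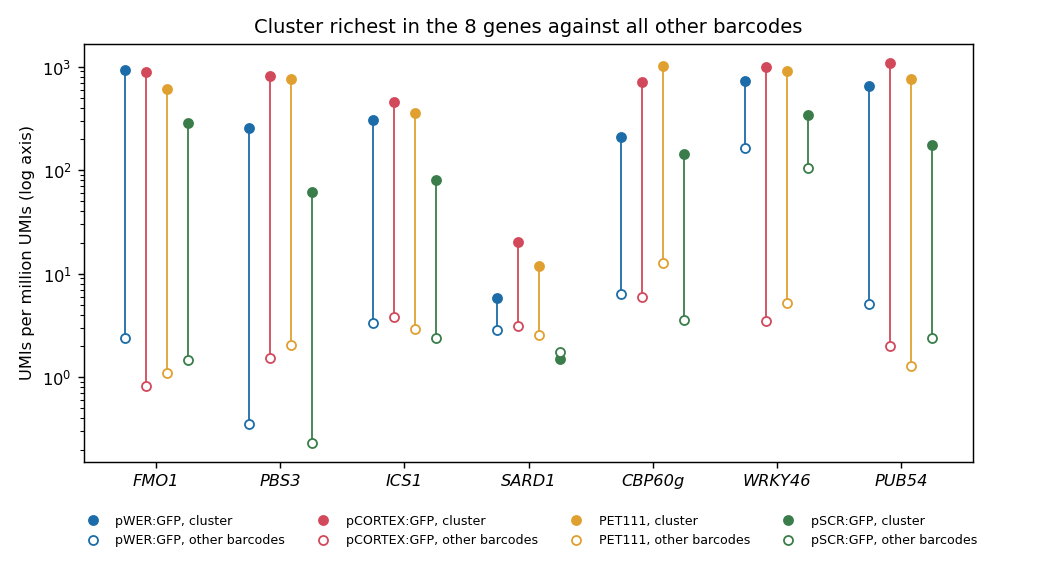
Level of the 7 genes that passed the filter in the FMO1-rich cluster (filled) and in all other kept barcodes of the same library (open), in CPM on a log axis. The open WRKY46 points fall into a high pair, 164 and 105 CPM, and a low pair, 3.47 and 5.17 CPM, while SARD1 in pSCR:GFP stands at 1.51 inside against 1.75 outside.

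The cluster met no cell class at resolution 1. At resolution 0.5, root cap-like clusters held 81.5% of the UMIs of the 8 genes in pCORTEX:GFP and 28.4% in pWER:GFP, so the name given to these transcripts changes with the resolution there. Of the 9 root cap markers, 3 were at least 2-fold higher in it in each of the 4 libraries, the NAC factors SMB, NAC015 and NAC070, which act in root cap maturation, while 1, 2, 2 and 3 of the 9 were at least 2-fold lower. Their class summed to 1074, 852, 633 and 618 CPM inside against 185, 158, 139 and 199 outside, in the order pWER:GFP, pCORTEX:GFP, then PET111 and pSCR:GFP, with 2, 1, 2 and 2 of its markers at 0. The mean log2 ratio of the class was 0.47, 0.28, 0.25 and 0.01, under the 0.5 that the name required. No marker of any other class was 2-fold higher in any library, and 9 of 9 endodermis markers were 2-fold lower in each. The median log2 ratio of all genes inside over outside was -0.26, -0.19, -0.20 and -0.19. The median depth of its barcodes was 14041, 9912, 8780 and 14633 UMIs against 10305.5, 14812, 16857 and 8915 outside, so the cluster was deeper than the rest in pWER:GFP and pSCR:GFP and shallower in pCORTEX:GFP and PET111. Median doublet scores were 0.0765, 0.0534, 0.0352 and 0.0695 inside and 0.0670, 0.0475, 0.0453 and 0.0593 outside. The part of the root cap genes and of depth in the levels above was not tested.

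Barcodes inside the cluster were not alike. A set of 5 genes, FMO1, PBS3, ICS1, CBP60g and PUB54, is called the core from here on, and it was picked after the correlations below were seen. All 5 were detected in 27.7% of the barcodes of the cluster in pWER:GFP, 31.1% in pCORTEX:GFP, 20.6% for PET111 and 8.17% in pSCR:GFP. None of the 5 was detected in 16.1%, 1.59%, 1.29% and 48.5%. At 2000 UMIs per barcode none was detected in 34.9%, 9.16%, 10.3% and 73.2%, so the pSCR:GFP cluster mixed the most barcodes without a core transcript at equal depth as well. CBP60g was the most widely detected gene in pCORTEX:GFP and PET111, in 94.8% and 97.4% of the barcodes of the cluster, against 64.4% in pWER:GFP and 44.2% in pSCR:GFP. FMO1 was seen in 56.5%, 55.8%, 42.1% and 18.6% of the barcodes of the cluster, and in 2.50%, 1.29%, 1.40% and 0.942% of the others. In positive barcodes of the cluster the median FMO1 count was 12, 9.5, 7 and 14 UMIs, and the highest count of 1 barcode was 196, 152, 89 and 91 UMIs. A few barcodes therefore carried much of the signal, and the 10 barcodes with the most FMO1 held 21.9%, 32.9%, 36.4% and 36.7% of its UMIs.

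Correlations across the kept barcodes of a library were known when the core was picked, so those of the core genes describe that choice. The Pearson correlation of ln(1 + UMIs per 10000) had a median over their 10 pairs of 0.616 in pWER:GFP, 0.661 in pCORTEX:GFP, 0.645 for PET111 and 0.556 in pSCR:GFP. The highest pair was PBS3 with PUB54 in 3 libraries, at 0.726, 0.765 and 0.786, and FMO1 with PUB54 in pSCR:GFP, at 0.712. The lowest was ICS1 with CBP60g in all 4, at 0.458, 0.447, 0.407 and 0.338. The points are barcodes that share a library and differ in depth, and the values are descriptions.

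CBP60g was taken into the core and SARD1 left out with these correlations known, so the values of both describe that choice. CBP60g had a mean correlation with the other core genes of 0.539, 0.555, 0.536 and 0.460, in the order pWER:GFP, pCORTEX:GFP, then PET111 and pSCR:GFP. SARD1 had 0.061, 0.095, 0.124 and 0.025 with the core. WRKY46 had 0.632 and 0.594 in pCORTEX:GFP and PET111, close to the core genes, and 0.279 and 0.240 in pWER:GFP and pSCR:GFP. Over all pairs of the 8 genes with a value the median was 0.236, 0.474, 0.587 and 0.298, from 28 pairs in the libraries with an ALD1 UMI and 21 in the others.

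**Figure D3:**
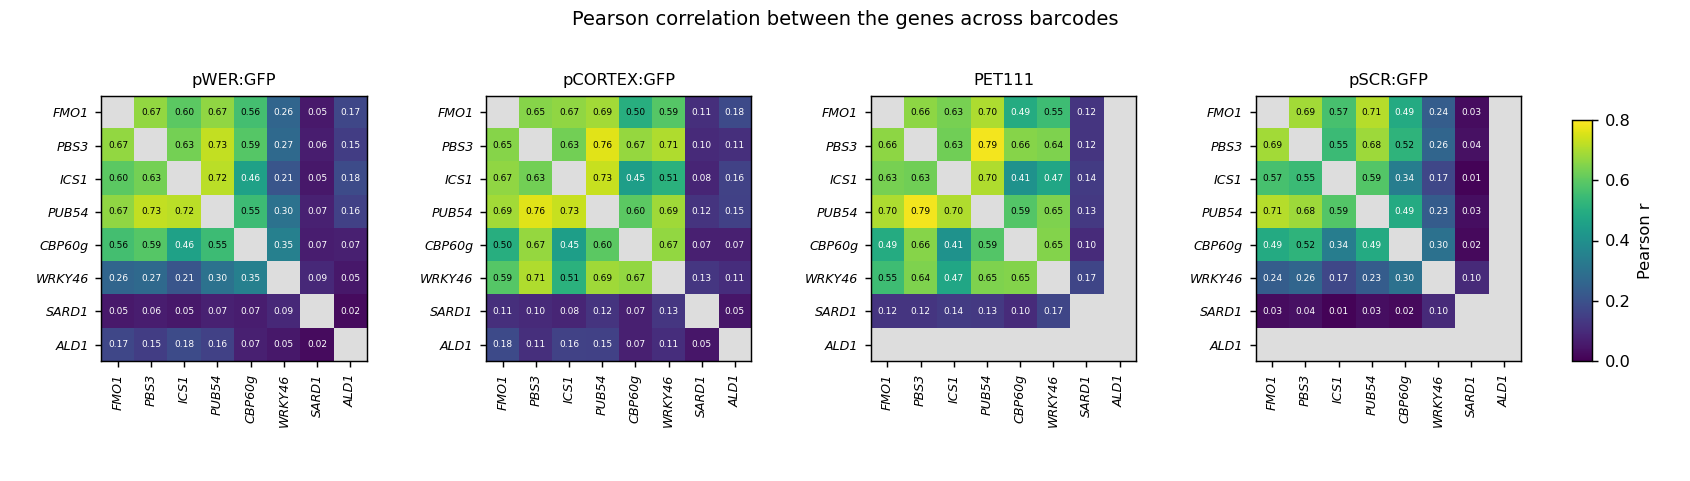
Pearson correlation of ln(1 + UMIs per 10000) between the genes over the kept barcodes of each library, from 0 to 0.8 on the colour scale, with grey on the diagonal and where a gene had 0 UMIs. The block of FMO1, PBS3, ICS1, PUB54 and CBP60g is high in all 4 panels, WRKY46 joins it in pCORTEX:GFP and PET111, and the SARD1 row stays at or under 0.17.

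Leaving out the FMO1-rich cluster, an alternative added after the values were seen, took the core median to 0.046, 0.252, 0.298 and 0.050. The cluster was picked for holding these transcripts, so a lower value without it follows from the choice and nothing is read from it. Inside the cluster alone the core median was 0.524, 0.466, 0.526 and 0.666. Thinned to 2000 UMIs, the core median over all barcodes was 0.409, 0.542, 0.543 and 0.343.

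Co-detection was counted in barcodes thinned to 2000 UMIs. PBS3 was seen in 0.267%, 0.354%, 0.291% and 0.121% of barcodes with none of the other core genes. It was seen in 44.4% of 133, 73.5% of 181, 80.5% of 128 and 37.3% of 59 barcodes with at least 2 of the others. FMO1 was seen in 0.896%, 0.184%, 0.356% and 0.287% of barcodes with none and in 66.7%, 42.5%, 42.5% and 67.3% of barcodes with at least 2. ICS1 was seen in 0.846%, 0.537%, 0.741% and 0.498% with none and in 52.3%, 38.0%, 34.8% and 32.7% with at least 2. The core was picked for its correlation in these barcodes, so these shares describe that choice and nothing is read from their difference.

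WRKY46 was seen in 61.8%, 61.7%, 57.6% and 63.5% of barcodes with at least 2 core genes, and these 4 intervals overlapped. In barcodes with none it was seen in 16.5%, 0.668%, 1.01% and 11.0%, so the lines differed in the barcodes without core transcripts. SARD1 was seen in 0 of 144, 8 of 227, 8 of 165 and 0 of 63 barcodes with at least 2 core genes, where a count of 0 allows up to 2.08% in pWER:GFP and 4.76% in pSCR:GFP. In pCORTEX:GFP and PET111 the shares of 3.52% and 4.85% lay above the 0.611% and 0.552% of barcodes with none. At this depth 111, 182, 135 and 48 barcodes had at least 3 of the 8 genes, and 95.5%, 87.9%, 88.1% and 97.9% of them were in the FMO1-rich cluster. That cluster was picked for its UMIs of the same 8 genes, so nothing is read from these shares.

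SARD1 had its highest level in other clusters, but in pCORTEX:GFP the margin was within counting error. The FMO1-rich cluster stood there at 20.3 CPM (15.4 to 26.2), an interval that overlaps that of the highest cluster. In pWER:GFP the cluster with the highest level was endodermis-like, at 27.9 CPM (24.4 to 31.7), and it held 39.1% of the SARD1 UMIs of the library. In PET111 an endodermis-like cluster stood at 27.9 CPM (22.6 to 34.1) and held 23.2%. In pSCR:GFP an endodermis-like cluster stood at 14.2 CPM (11.5 to 17.5) and held 34.6%. In pCORTEX:GFP it was an unnamed cluster at 25.4 CPM (23.1 to 27.9), with 44.8% of the UMIs and with AT4G11290, RCI3, AT2G14900, MYB68 and MYB36 among its leading genes. MYB36, a transcription factor of endodermal differentiation, was also among the leading genes of the 3 endodermis-like clusters. In each library the cluster with the highest SARD1 level was thus led by MYB36 among others. FMO1 in these clusters stood at 0.120 CPM in pWER:GFP, at 0.972 in pCORTEX:GFP, at 0.588 in PET111 and at 1.41 in pSCR:GFP.

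A SARD1 UMI was seen in 26.2% of endodermis-like barcodes of pWER:GFP, whose median depth was 18457 UMIs, against 1.41% of hair cell-like barcodes at 21235. In pSCR:GFP the shares were 20.5% at 18396.5 UMIs and 1.64% at 14931. In PET111 they were 22.7% at 17214 UMIs and 0 of 185 at 46095, which allows up to 1.62%. In pCORTEX:GFP the named class with the highest level was cortex-like, at 5.91 CPM, against 3.28 in endodermis-like barcodes, and the endodermis-like class there was a single cluster. Cortex-like barcodes also held 25.9% of the SARD1 UMIs in PET111, at 10.6 CPM.

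**Figure D4:**
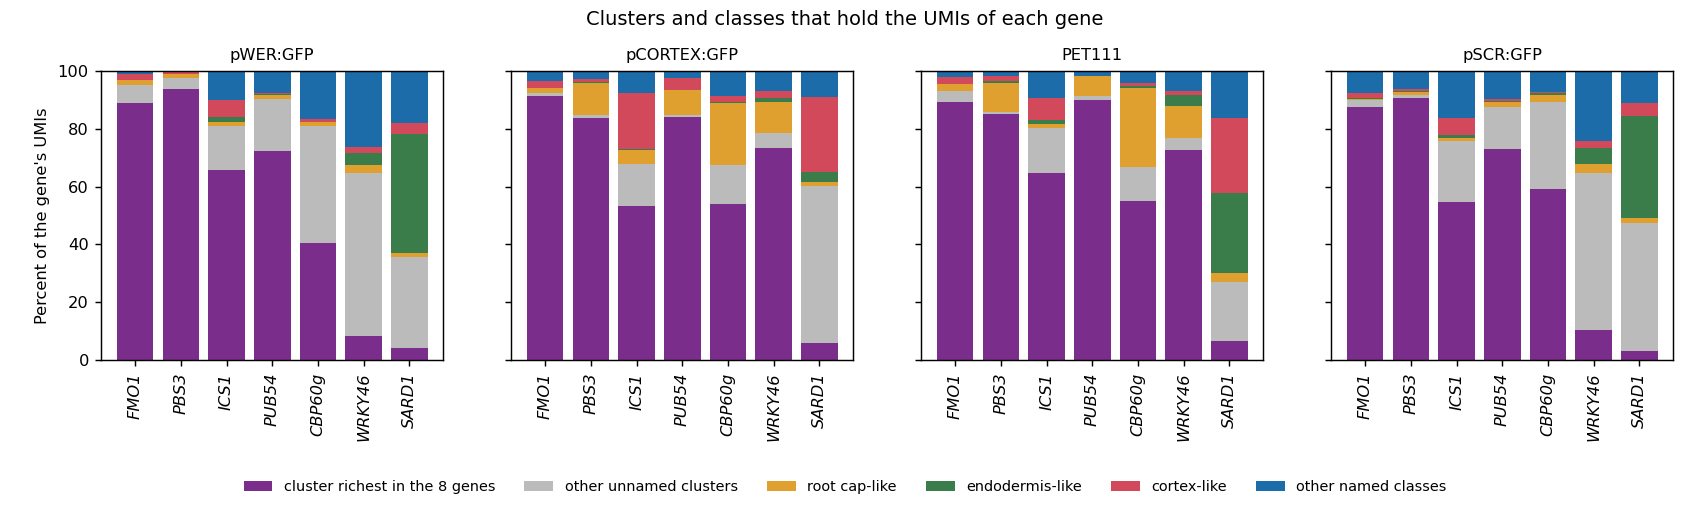
Percent of the UMIs of each gene in the FMO1-rich cluster, in other unnamed clusters and in named classes, 1 panel per library. FMO1, PBS3, ICS1 and PUB54 lie mostly in the FMO1-rich cluster in all 4 libraries, WRKY46 does so in pCORTEX:GFP and PET111, and SARD1 lies in endodermis-like, cortex-like and other unnamed clusters.

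Outside the FMO1-rich cluster the core genes were not evenly spread. CBP60g was highest among named classes in root cap-like barcodes in pCORTEX:GFP, at 54.2 CPM, and in PET111, at 123 CPM, where the class held 21.5% and 27.3% of its UMIs. In pWER:GFP and pSCR:GFP the highest named class was non-hair cell-like, at 10.7 and 3.07 CPM, and root cap-like barcodes stood at 2.91 and 2.30. The root cap-like class of the lines was made of different clusters, 6 in pCORTEX:GFP and PET111 and 4 in pWER:GFP and pSCR:GFP. In PET111 a root cap-like cluster of 101 barcodes reached 333 CPM of CBP60g with 0 FMO1 UMIs, and in pCORTEX:GFP one of 75 barcodes reached 266 CPM, also with 0. Genes such as PXMT1, PLA2A and GLP9 led both of these clusters. CBP60g was thus found without FMO1 there.

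PBS3 and PUB54 also had a second place in pCORTEX:GFP and PET111. A root cap-like cluster led by BGLU35 held 10.3% of the PBS3 UMIs in pCORTEX:GFP, at 149.7 CPM, and 6.38% in PET111, at 79.6 CPM. In those clusters PUB54 stood at 147 and 44.1 CPM. FMO1 stood there at 12.1 and 7.35 CPM. ICS1 in cortex-like barcodes stood at 9.11, 10.9, 9.22 and 5.33 CPM in pWER:GFP, pCORTEX:GFP, then PET111 and pSCR:GFP. That class held 19.4% of its UMIs in pCORTEX:GFP and 5.90%, 7.45% and 6.19% in pWER:GFP, PET111 and pSCR:GFP. ICS1 stood at 10.6, 9.40, 1.95 and 10.7 CPM in phloem-like barcodes, so no single named class led for ICS1 in all 4 libraries.

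FMO1 outside the cluster was also looked at in hair cell-like barcodes. FMO1 stood there at 0.504, 1.00, 0 and 4.20 CPM and was seen in 2.46%, 1.29%, 0 of 185 and 2.62% of them, at median depths of 21235, 42354, 46095 and 14931 UMIs. Over all barcodes outside the FMO1-rich cluster the shares were 2.50%, 1.29%, 1.40% and 0.942%. The first 3 lie within the intervals of the hair cell-like shares, 0.997% to 5.01%, 0.266% to 3.72% and 0% to 1.97%. The share of pSCR:GFP lies below its interval of 1.14% to 5.10%. These intervals are wide, and single barcodes outside the cluster held up to 63, 42, 30 and 44 FMO1 UMIs. The comparison cannot tell whether FMO1 is expressed outside the cluster, and nothing is read from it. WRKY46 in hair cell-like barcodes stood at 24.3, 1.93, 0.0879 and 15.5 CPM.

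WRKY46 transcripts were counted in every class of pWER:GFP and pSCR:GFP. Barcodes under 2000 UMIs, which were not kept, had WRKY46 at 126 and 88.3 CPM in these libraries, so the spread over classes is not read as expression in each. Over the named classes it ranged from 24.3 CPM in hair cell-like to 272 in xylem-like barcodes of pWER:GFP and from 15.5 in hair cell-like to 182 in dividing-like barcodes of pSCR:GFP. In pCORTEX:GFP the range was 1.55 to 27.0 CPM and in PET111 0.0879 to 34.5, with root cap-like barcodes highest in both. An unnamed cluster led by GSTF2, CYP706A1 and CYP71A13 held a further 21.4% of the WRKY46 UMIs of pWER:GFP and 21.8% of those of pSCR:GFP, at 314 CPM in the latter. These clusters also held 19.7% and 19.8% of the CBP60g UMIs, against 2.48% and 0.925% of the FMO1 UMIs.

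Of all genes tested, 8.6%, 10.3%, 9.84% and 5.88% were at least 2-fold higher in the FMO1-rich cluster in pWER:GFP, pCORTEX:GFP, then PET111 and pSCR:GFP. As much lower were 18.5%, 16.3%, 17.5% and 12.1%, and the lists below are set beside those shares. The lists were chosen with earlier results of these data known, and the cluster was picked by the 8 immune genes. The counts of the lists are therefore descriptions, and no enrichment is read from them. Of 11 other genes of salicylic acid and N-hydroxypipecolic acid synthesis and turnover 8 passed the filter, and 2, 1, 1 and 1 of them were at least 2-fold higher and 1, 2, 3 and 1 lower, numbers too small to set apart from those shares. Their median log2 ratio was -0.50, -0.74, -0.48 and -0.80, against -0.26, -0.19, -0.20 and -0.19 over all genes. EDS5, the plastid transporter that exports isochorismate, stood at 64.1 CPM inside against 68.0 outside in pWER:GFP, 63.6 against 40.3, 48.7 against 31.0 and 31.2 against 71.9 in pSCR:GFP. UGT74F2, which glucosylates salicylic acid, stood at 189.6 against 341, 15.4 against 84.5, 13.7 against 123 and 353 against 604 CPM, lower inside in all 4. UGT76B1, another glucosyltransferase, and DMR6, a salicylic acid hydroxylase, were also lower inside in all 4, at ratios of 0.433 to 0.581 and 0.332 to 0.575 with 5 CPM added. SARD4, the reductase that completes pipecolic acid, was higher in all 4, at 36.2 against 6.72, 110.1 against 6.67, 124 against 7.42 and 20.2 against 4.53 CPM. SARD4 was named after its values were seen.

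Of 13 genes of salicylic acid perception and immune regulation, 4, 8, 6 and 4 were at least 2-fold higher in the cluster, against 8.6%, 10.3%, 9.84% and 5.88% of all genes. As much lower were 0, 1, 1 and 0 of the 13, against 18.5%, 16.3%, 17.5% and 12.1% of all genes. The median log2 ratio of the 13 was 0.79, 1.10, 0.97 and 0.36. NPR1, the salicylic acid receptor, stood at 38.9 against 17.9, 59.1 against 15.8, 74.4 against 20.6 and 47.7 against 19.5 CPM. NPR3, a related receptor, stood at ratios of 0.998, 2.56, 1.84 and 1.08, TGA1 at 1.12, 0.403, 0.451 and 0.789 and NIMIN1 at 1.39, 3.39, 3.04 and 1.68. PAD4, a lipase-like protein that works with EDS1, stood at 310.0 against 10.5, 755 against 8.42, 865 against 10.5 and 113 against 6.93 CPM. Ratios for EDS1 ranged from 4.20 to 11.0 and for SAG101, the third lipase-like protein of the group, from 3.56 to 9.63. PAD4, EDS1 and SAG101 were named after their values were seen, and all 3 were higher inside the cluster in all 4 libraries.

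Of 8 marker genes of the salicylic acid response 5 passed the filter. Of these 5, 2, 2, 2 and 1 were at least 2-fold higher, against 8.6%, 10.3%, 9.84% and 5.88% of all genes. As much lower were 2, 0, 0 and 0 of the 5, against 18.5%, 16.3%, 17.5% and 12.1% of all genes. The median log2 ratio of the 5 was -0.59, -0.19, -0.08 and -0.22. PR1, the gene most used as a marker of the hormone in leaves, had 0 UMIs in every library, which allows up to 0.0149, 0.0101, 0.0197 and 0.0199 CPM if its transcripts were counted, and whether the annotation behind the tables captured them was not checked. PR2 and PR5 had 0 UMIs in the cluster of each library. These 3 were named after their values were seen. WRKY53 was higher in all 4, at ratios of 3.66, 3.96, 3.28 and 3.62, and WRKY70 at 2.34, 11.1, 8.05 and 1.15. WRKY40 and WRKY18, which were high over whole libraries where WRKY46 was high, were not higher in the cluster, at ratios of 0.385 to 0.743 and 0.381 to 0.862.

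Genes of the early response to microbial patterns were at least 2-fold higher in the cluster in 9, 11, 9 and 8 cases of 11, against 8.6%, 10.3%, 9.84% and 5.88% of all genes. In each library 0 of the 11 were as much lower, against 18.5%, 16.3%, 17.5% and 12.1% of all genes. The median log2 ratio of the 11 was 1.66, 2.66, 2.03 and 1.37. This list too was chosen with earlier results of these data known, so the counts are descriptions. WRKY33, which controls camalexin genes, was at ratios of 2.67, 4.83, 4.00 and 2.37, and MPK3, a mitogen-activated protein kinase, at 3.15, 6.85, 6.40 and 2.59. PROPEP3, the precursor of a danger peptide, was at 4.64, 6.32, 4.08 and 4.18, while WRKY30 was at 0.583, 2.06, 1.28 and 1.74. NHL10 and FRK1, common markers of the response, ranged from 32.2 to 73.7 and from 7.24 to 17.4, and RBOHD, the oxidase of the oxidative burst, from 5.87 to 9.86. NHL10, FRK1 and RBOHD were named after their values were seen.

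Of the camalexin genes, CYP71A12, a cytochrome P450 of indole metabolism, stood at 5499 CPM inside against 189 outside in pWER:GFP, 3524 against 66.0 in pCORTEX:GFP, 4500.3 against 184 in PET111 and 2853 against 124 in pSCR:GFP. CYP71A13 was at ratios of 3.34, 13.2, 1.32 and 1.56 and PAD3, which makes camalexin, at 1.47, 3.37, 1.58 and 0.449. Of the 7 jasmonate and wounding genes that passed the filter 0 were 2-fold higher in the cluster in any library with 5 CPM added, against the same shares of all genes, and 1, 0, 1 and 1 were lower. With 1 CPM added 2 were higher in pCORTEX:GFP and 2 in PET111, and the share of all genes with 1 CPM is not given. ERF1 and LOX4, the genes in question and named after their values were seen, stood at 3.84 against 0.396 and 7.34 against 2.39 CPM in pCORTEX:GFP and at 2.66 against 0.708 and 9.30 against 3.75 in PET111. JAZ1 stood at 1047 CPM inside against 1018 outside, 209 against 174, 131 against 148 and 973 against 1046, and JAZ10 was at ratios of 0.526, 1.18, 1.33 and 0.763 and LOX3, a lipoxygenase, at 1.01, 1.28, 1.24 and 1.02. AOS, the allene oxide synthase of jasmonate synthesis, was lower inside in all 4, at 0.326, 0.672, 0.485 and 0.301.

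**Figure D5:**
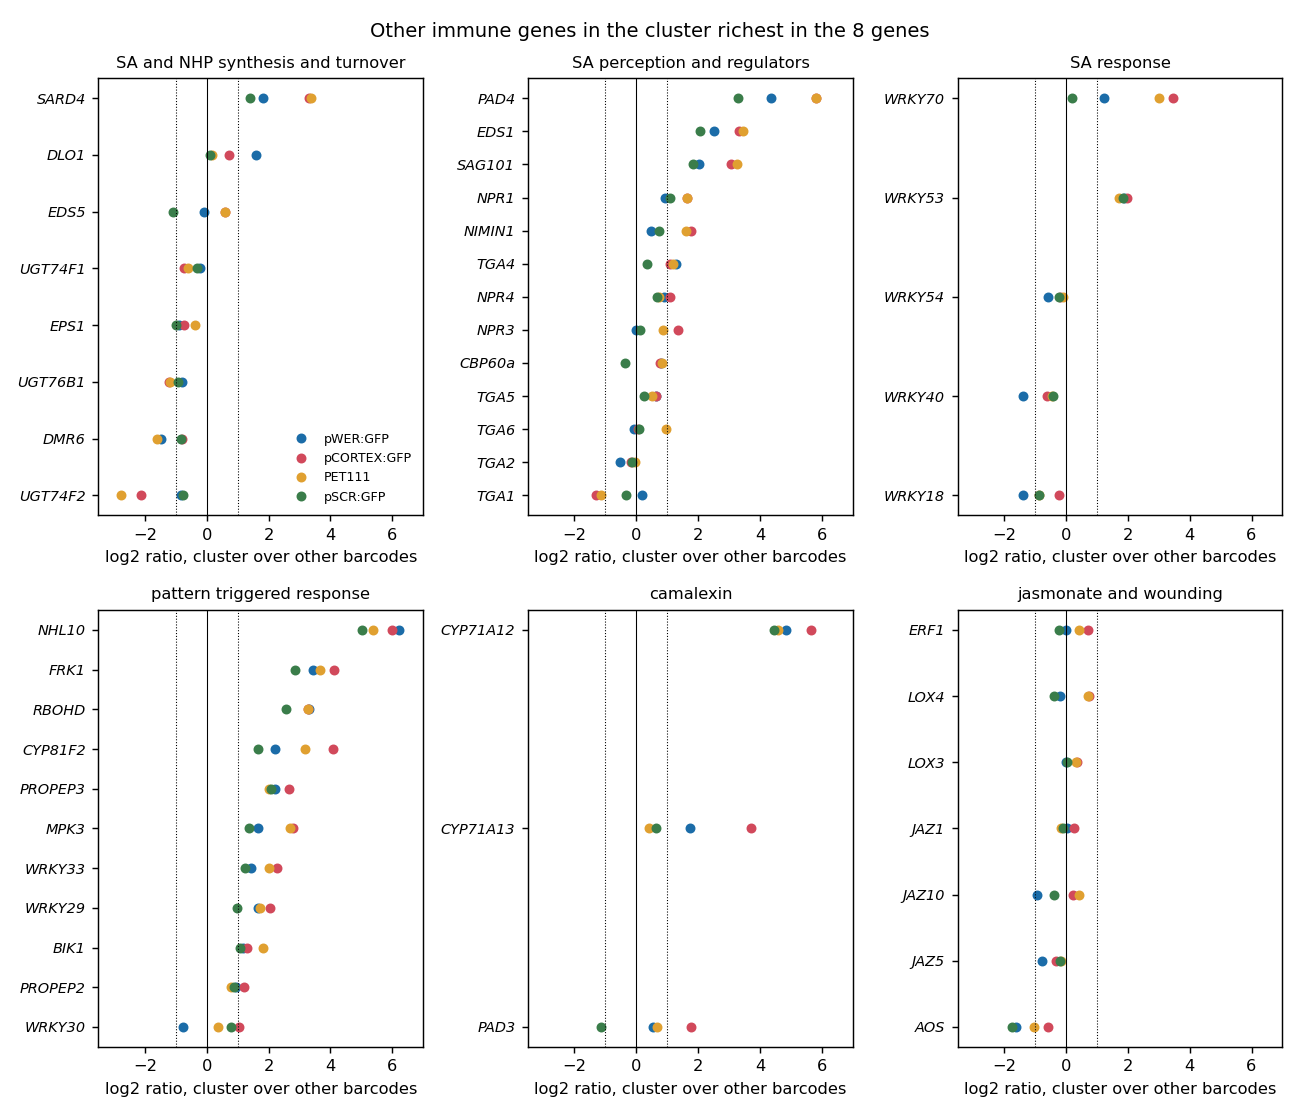
Log2 ratio of the FMO1-rich cluster over all other kept barcodes, with 5 CPM added to both sides, for the genes of 6 immune lists that passed the filter, 1 point per library, with dotted lines at 2-fold. PAD4, NHL10, FRK1 and CYP71A12 lie far to the right in all 4 libraries, while UGT74F2 and AOS lie to the left of 0.

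The genes whose level followed the sum of the 8 genes most closely were ranked by the mean Pearson correlation over the 4 libraries, among 17558 genes seen in at least 1% of the kept barcodes of every library. AT5G25260 was first at 0.647, followed by PAD4 at 0.621, AT5G51465 at 0.611, FLOT1 at 0.597, AT1G09932 at 0.594, PARG2 at 0.593, XBAT34 at 0.586, AT3G47480 at 0.584, AT5G52760 at 0.573 and HR4 at 0.572. Values were lower in pWER:GFP and pSCR:GFP, where WRKY46 makes up most of the sum, than in pCORTEX:GFP and PET111, as for AT5G25260 at 0.490 and 0.437 against 0.821 and 0.841. AT5G25260 and FLOT1 neighbour each other in RefSeq, and whether their reads can be told apart was not checked.

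By gene, FMO1 was most like PUB54 at 0.692, AT3G60415 at 0.678 and PBS3 at 0.669. PBS3 was most like AT5G25260 at 0.746, PUB54 at 0.740 and AT5G51465 at 0.713, and PUB54 was most like PBS3, AT5G25260 at 0.719 and AT3G60415 at 0.700. ICS1 was most like PUB54 at 0.685, FMO1 at 0.617 and PBS3 at 0.609. CBP60g was most like AT5G25260 at 0.711, AT5G51465 at 0.665 and FLOT1 at 0.657. WRKY46 was most like AT5G52760 at 0.543, AT5G25260 at 0.497 and CBP60g at 0.492. SARD1 shared no gene with these lists and was most like MYB68 at 0.236, PROPEP6 at 0.229 and AT4G11290 at 0.221. ALD1 was seen in too few barcodes to be ranked.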

How the data were processed

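The deposited tables hold whole-number UMI counts per gene and barcode, unnormalized as the authors deposited them. Cell Ranger 7.1.0 and Seurat are named in the submitters' processing notes. The genome build is not given in the sources used here, so no coordinates or sequences are printed. Gene symbols came from RefSeq TAIR10.1, which matched 32548 of 32833 gene rows. No column of per-sample values was left unread.

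Barcodes with at least 2000 UMIs and at most 10% organelle UMIs were kept. Each library was clustered alone with scanpy 1.11.5 (2000 variable genes, 30 principal components, 15 neighbours, Leiden resolution 1) without reporters, organelle genes, the 8 genes and 57 other immune genes. A cluster was called "X-like" when at least 3 markers of a class, of 79 markers of 9 classes, were at least 2-fold above the rest with 10 UMIs each and the class had a mean log2 ratio of at least 0.5. It stayed unnamed when its 10 leading genes held more markers of another class, or none of its own at a median depth over 3-fold below the library. These thresholds were set after clusters of these data were seen. Scrublet (expected rate 8%) called 0 doublets in each library, so the call failed and no doublet was removed.

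CPM sums, log2 ratios with 5 CPM added, correlations and thinning without replacement to 2000 UMIs were computed with numpy 2.4.6, scipy 1.17.1 and pandas 2.3.3. TMM factors came from edgeR 4.0.16 and size factors from DESeq2 1.42.0. Thinning, correlation and the log2 ratio were checked on simulated counts, while the TMM and size factors were not. With 1 library per line there is no test between lines. The members and lists were chosen with earlier results of these data known. Genes named beyond the 8 were, per list, at most 4 of the highest mean CPM, the 10 most correlated with the sum of the 8 and the 3 most correlated with each; others are marked where named. Alternatives covered barcode limits, doublet scores, scaling, the added CPM, filters, correlation measure, resolution and leaving out libraries.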

Additional observations from a re-analysis of the deposited data

Results flagged for a closer look

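Barcodes left out for more than 10% organelle UMIs were in no comparison above, and they held transcripts of the 8 genes above the limit that a count of 0 allows. The 8 genes summed to 84.0 CPM in 831 such barcodes of pWER:GFP, 50.7 in 886 of pCORTEX:GFP, 168 in 1304 of PET111 and 63.2 in 1485 of pSCR:GFP, against limits of 0.815, 0.701, 0.475 and 0.462 CPM. In kept barcodes the sums were 243.5, 68.2, 93.2 and 151 CPM, so in PET111 alone the left-out barcodes were higher. Of the 1062 UMIs there, 318 were CBP60g, 243 PBS3, 149 FMO1 and 134 WRKY46, and 40 barcodes had at least 3 of the 5 core genes. In pWER:GFP 245 of 309 UMIs, and in pSCR:GFP 329 of 410, were WRKY46.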

How the results depend on the processing

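No paired analysis was possible because each line has 1 library. Values are in the order pWER:GFP, pCORTEX:GFP, then PET111 and pSCR:GFP. The 8 genes summed stood at 243.5, 68.2, 93.2 and 151 CPM. A minimum of 5000 UMIs gave 246, 65.9, 88.1 and 155, no organelle limit 241 in pWER:GFP, 96.2 in PET111 and 148 in pSCR:GFP, and leaving out the 8% highest doublet scores 237, 72.2 and 105 in the first 3. The mean of each barcode's CPM gave 269, 223, 383 and 136, which put PET111 first, and leaving out the FMO1-rich cluster 184, 20.8, 27.6 and 117. The log2 ratio over the other lines for the sum was 1.19, -1.20, -0.70 and 0.16. TMM factors gave 1.22, -1.16, -0.76 and 0.13, size factors -1.16 in pCORTEX:GFP and -0.78 in PET111, 1 CPM added 1.22 and -1.24 in the first 2, and 5000 UMIs 1.22, -1.24, -0.79 and 0.21. Leaving out 1 library in turn gave 0.97 to 1.54, -1.47 to -0.80, -1.04 to -0.23 and -0.15 to 0.87. The pSCR:GFP sign thus rests on both low libraries, at -0.15 without pCORTEX:GFP and -0.04 without PET111. The median correlation over all pairs of the 8 genes was 0.184, 0.181, 0.283 and 0.183 with Spearman, 0.168, 0.157, 0.283 and 0.247 centred on cluster means and 0.029, 0.204, 0.225 and 0.024 without the cluster. Thinning gave 0.181, 0.447 and 0.195 in pWER:GFP, PET111 and pSCR:GFP, and 5000 UMIs 0.305 in pWER:GFP and 0.368 in pSCR:GFP. The cluster held 25.8%, 69.9%, 70.8% and 25.3% of the UMIs of the 8 genes at resolution 1, 24.6%, 72.1%, 75.7% and 25.8% at resolution 0.5 and 23.3%, 57.8%, 41.0% and 23.3% at resolution 2. At resolution 0.5 root cap-like clusters held 81.5% of these UMIs in pCORTEX:GFP and 28.4% in pWER:GFP, so the name given to the cells depends on the resolution. Of the 57 other immune genes, some of which did not pass the filter, 19, 25, 19 and 15 were 2-fold higher in the cluster. The shares over all genes were 8.6%, 10.3%, 9.84% and 5.88%. With 1 CPM added the counts were 23, 28, 23 and 17, and the share over all genes with 1 CPM is not given. The cause of these shifts was not tested. ALD1 and the thinned SARD1 shares rest on few UMIs, and the part of depth in this was not tested.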

Other observations

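Ranked against the sum of the 5 core genes in place of all 8, a choice made after the values were seen, the genes most alike were AT5G25260 at a mean correlation of 0.785 over the 4 libraries, AT5G51465 at 0.745, PAD4 at 0.716 and PARG2 at 0.709. AT1G65481, ARI12 and AT1G44130, which were not among the 10 genes most like all 8, followed the core at 0.698, 0.691 and 0.691. Between 78.4% and 88.0% of the ARI12 UMIs of a library lay in the FMO1-rich cluster.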
